A study of Homo sapiens with 6 samples.

Results

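The mitosis genes described here are 46 named genes that build, drive or check cell division, among them MKI67, the gene of the Ki-67 antigen. They were taken by symbol from a table of 78932 genes, and all 46 were found once and all 46 passed the minimum of 10 counts in at least 3 libraries, as did 18474 genes of the whole table. RNA sequencing was done on T24, a human urothelial carcinoma cell line, in 3 cultures transfected with the control labelled siNC and 3 transfected with siRNA against TRIM28, labelled siTRIM28. All 6 cultures share the medium, the transfection reagent and a single labelled batch, and the labels give no interval between transfection and harvest. The study designed more than 1 siRNA against TRIM28 and the sources used here do not say which of them these cultures received, so an effect of TRIM28 loss and an effect of the duplex cannot be told apart. The labels call the replicates biological.

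Reads counted on genes summed to between 11712623 and 14018052 per library. Values are given as CPM, a gene’s counts relative to the TMM-scaled total of its library, in the order of replicates 1, 2 and 3. TRIM28 itself had 102, 101 and 108 CPM in siNC and 9.28, 8.11 and 9.21 in siTRIM28 (log2 fold change −3.54, standard error 0.0723, adjusted p = 1.03e-10), so the knockdown was seen in each siTRIM28 culture. Within groups, siNC replicate 3 and siTRIM28 replicate 1 stood apart. The chi-square of the counts per degree of freedom was 1.08 between siNC replicates 1 and 2 and 1.22 between siTRIM28 replicates 2 and 3, against 4.17 to 6.25 for the pairs with siNC replicate 3 or siTRIM28 replicate 1. The labels name all 6 as separate replicates and they were kept as such, but these values do not show whether the libraries of a close pair came from separate cultures. With each close pair summed to 1 sample, 21 of the mitosis genes rose and 8 fell. In that fit 5830 of 20157 genes tested changed, and 45.9% of those changed were higher. Of 6 epithelial markers, 3 passed the count minimum (KRT7, KRT8 and KRT18), while EPCAM, CDH1 and KRT19 lay under 1 CPM. All 4 mesenchymal markers passed. Of the urothelial differentiation markers 3 of 7 passed, and UPK1B was at 0 in every library. Of leukocyte, endothelial and fibroblast markers 3 of 10 passed (CD68, PDGFRA and COL1A1), with CD3E and CDH5 at 0 in every library. The summed CPM of 5 of the 6 lists separated the groups, with 189 to 197 in siNC and 207 to 215 in siTRIM28 for the epithelial list, 1563 to 1610.1 and 1817 to 1930.0 for the mesenchymal list, 10.3 to 10.7 and 12.3 to 13.3 for the urothelial list, 0.433 to 0.504 and 0.714 to 1.01 for the endothelial list and 1.88 to 2.66 and 3.57 to 4.98 for the fibroblast list. The mesenchymal and endothelial sums mostly followed 1 gene each, VIM (mean 1102 and 1389 CPM) and PECAM1 (mean 0.373 and 0.801 CPM). ZEB1, FN1 and VWF overlapped between the groups, and CDH2 was higher in each siTRIM28 culture without passing the test. The urothelial and fibroblast sums followed 1 gene each, UPK1A (mean 0.874 and 3.41 CPM) and COL1A1 (mean 0.932 and 3.28 CPM), while GATA3, FOXA1, COL3A1 and PDGFRA had lower means in siTRIM28. Their part in the results was not tested.

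Mitosis is started by CDK1 bound to cyclin A or B, after CDC25 phosphatases remove the phosphates that hold CDK1 inactive. Aurora and Polo kinases then build the spindle, condensin compacts the chromosomes, and the kinetochore, a protein plate on the centromere, ties each chromosome to microtubules. The spindle checkpoint holds CDC20 until all chromosomes are attached, after which the anaphase-promoting complex marks securin and cyclin B for destruction. Most of these genes are transcribed late in the cell cycle under FOXM1, MYBL2 and the MuvB complex, so their transcript levels are widely read as a proliferation signature in tumours.

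Most of the mitosis genes were higher after TRIM28 knockdown. With edgeR's quasi-likelihood F-test, and p-values adjusted over all genes tested to a threshold of 0.05, 29 of 46 rose and 8 fell, and 9 did not pass, where 21.3% of all genes tested rose, 20.5% fell and 41.8% moved either way. The median log2 fold change of the 46 was 0.28, against 0.02 over all genes tested. Among the 7154 genes whose siNC level lay in the range of the mitosis genes (17.2 to 894 CPM), 23.8% rose and 32.7% fell, and the median was −0.04. The cultures of the groups did not overlap in 38 of the 46, with siTRIM28 above in 30 and below in 8. Over all genes tested 52.0% did not overlap, with siTRIM28 above in 26.3% and below in 25.7%. Among the 7154 genes in the siNC range of the mitosis genes, 4678 did not overlap, with siTRIM28 above in 1970 and below in 2708. Without siNC replicate 3 the counts were 26 higher and 8 lower, and without siTRIM28 replicate 1 they were 28 and 8. In bulk RNA a changed share of cells in mitosis and a changed amount of RNA per cell cannot be told apart.

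The changes were small for most of the genes. Of the 46 genes, 8 were called and moved by 0.58 or more on the log2 scale. That share was near the 17.0% over all genes tested. In the siNC range of the 46 genes, 871 of 7154 were called and moved as far. The 8 were BIRC5 and CENPA among the falls and CENPF, SGO1, ASPM, CDC25C, MKI67 and SPC24 among the rises. Together the 46 genes took 7995, 8033 and 8234 CPM in siNC and 9380.1, 9895 and 9704 CPM in siTRIM28. Every siTRIM28 culture thus lay above every siNC culture in this sum.

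**Figure D1:**
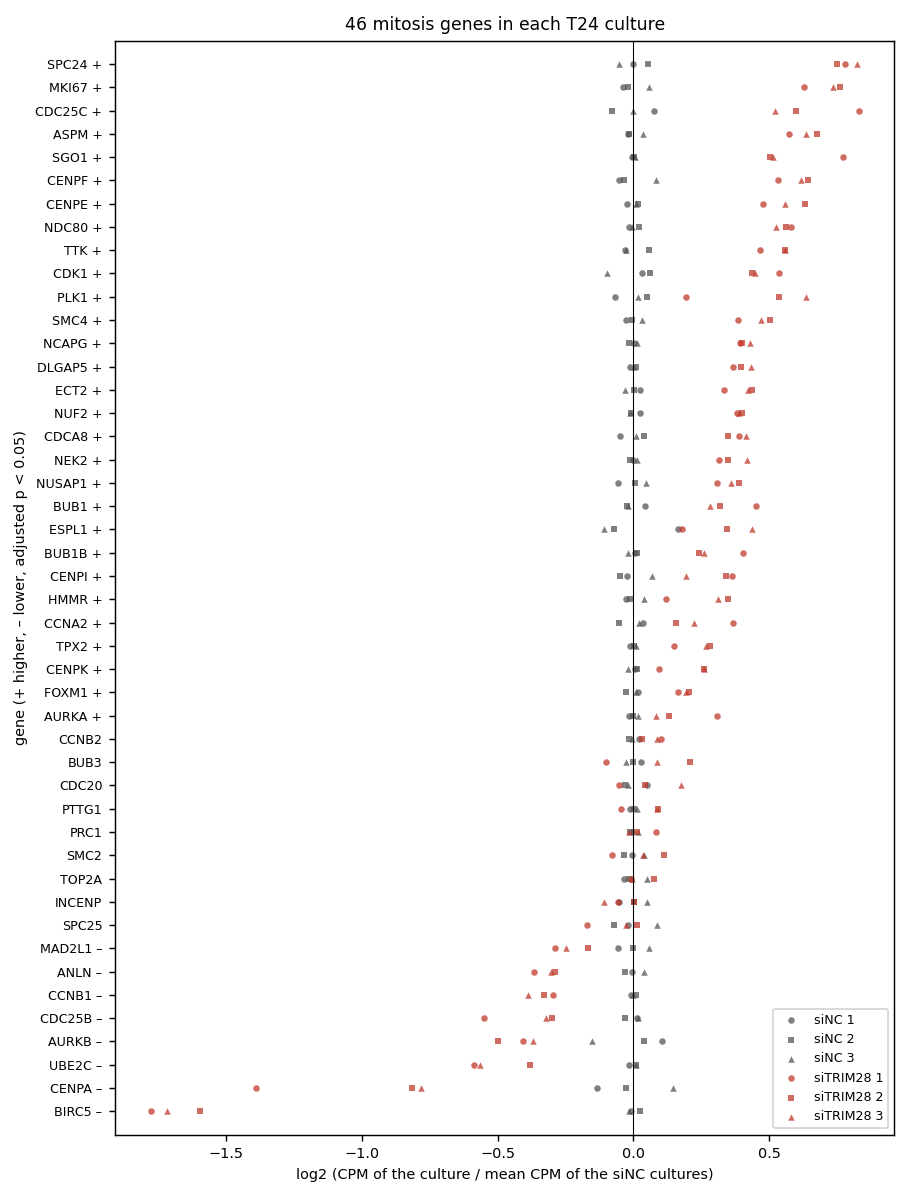
Each row is one of the 46 genes and each point a culture, placed by the log2 of its CPM over the mean CPM of the siNC cultures (grey siNC, red siTRIM28, marker shape the replicate number, and + or – for genes higher or lower at an adjusted p under 0.05). The red points lie right of the grey ones in the upper rows, from SPC24 (log2 fold change 0.78) downwards, overlap with them for the 8 genes from BUB3 to SPC25, and lie far to the left for CENPA (−0.98) and BIRC5 (−1.70).

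The cyclins and their regulators split. CDK1, the kinase that drives entry into mitosis, had 109, 111 and 99.6 CPM in siNC and 154, 144 and 145 in siTRIM28 (log2 fold change 0.47, standard error 0.0529, adjusted p = 2.56e-05). CCNA2, cyclin A, rose from 68.9 ± 2.26 to 82.0 ± 6.20 CPM (mean ± SD, n = 3 each, here and where a ± follows; a log2 change of 0.25 with adjusted p = 0.00637), and with the close pairs summed its adjusted p was 0.0588. CCNA2 overlaps EXOSC9 on the opposite strand, which carried about as many reads (102% of the CCNA2 count) and had a log2 fold change of 0.12, and the sources used here do not say whether counting used strand. CCNB1, cyclin B1, went the other way and had 111, 113 and 112 CPM in siNC and 91.3, 89.3 and 85.6 in siTRIM28 (log2 fold change −0.34, standard error 0.0460, adjusted p = 0.000117). Each siTRIM28 culture was below each siNC culture for this gene. CCNB2, cyclin B2, had 151, 147 and 149 CPM in siNC and 159.7, 152 and 158 in siTRIM28, and its difference did not pass the test (a log2 change of 0.07 with adjusted p = 0.181) although the groups did not overlap.

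The CDC25 phosphatases moved in opposite directions. CDC25B, which acts first at the centrosome, had 114, 111 and 114 CPM in siNC and 77.1, 91.7 and 90.4 in siTRIM28 (log2 fold change −0.39, standard error 0.0640, adjusted p = 0.000488). CDC25C, which acts on the bulk of CDK1 at mitotic entry, had 31.9, 28.7 and 30.3 CPM in siNC and 53.8, 45.9 and 43.5 in siTRIM28 (log2 fold change 0.66, standard error 0.0839, adjusted p = 7.13e-05). In both genes siTRIM28 replicate 1 was the culture farthest from siNC, and without it the log2 fold changes were −0.31 and 0.56, with both calls kept. CDC25C overlaps FAM53C on the opposite strand, whose log2 fold change was 0.20.

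Of the 5 mitotic kinases 4 rose and 1 fell. To set beside this and the following groups of the 46, 21.3% of all genes tested rose and 20.5% fell. In the siNC range of the 46 the shares were 23.8% and 32.7%. TTK, the checkpoint kinase also called MPS1, had 49.5, 52.6 and 49.6 CPM in siNC and 69.9, 74.5 and 74.5 in siTRIM28 (log2 fold change 0.53, standard error 0.0558, adjusted p = 1.66e-05). NEK2, which separates the centrosomes, rose from 73.1 ± 0.705 to 93.9 ± 3.42 CPM (a log2 change of 0.36 with adjusted p = 0.000114). These 2 kinases rose in every siTRIM28 culture above every siNC culture. PLK1, the Polo kinase, had 38.8, 42.1 and 41.2 CPM in siNC and 46.6, 59.0 and 63.3 in siTRIM28 (log2 fold change 0.46, standard error 0.0983, adjusted p = 0.00258), and siTRIM28 replicate 1 lay well under the other siTRIM28 cultures. Its log2 fold change was 0.59 without that library and 0.37 without siTRIM28 replicate 3, and with the close pairs summed its adjusted p was 0.0518. AURKA, the Aurora kinase of the spindle poles, had 72.4, 73.0 and 74.0 CPM in siNC and 90.6, 80.1 and 77.5 in siTRIM28 (log2 fold change 0.18, standard error 0.0619, adjusted p = 0.0362). Under DESeq2 its adjusted p was 0.0931. The call did not hold when any siNC replicate, siTRIM28 replicate 1 or siTRIM28 replicate 2 was left out (adjusted p from 0.0504 to 0.120), and siTRIM28 replicate 1 was the highest culture. AURKB, the Aurora kinase of the chromosomal passenger complex, fell, with 44.9, 42.9 and 37.6 CPM in siNC and 31.6, 29.6 and 32.3 in siTRIM28 (log2 fold change −0.42, standard error 0.0764, adjusted p = 0.000879).

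Of 9 genes of the spindle checkpoint and anaphase, 4 rose (44.4%), 2 fell (22.2%) and 3 were not called. The share of falls was near the 20.5% over all genes tested. BUB1, a kinase that recruits checkpoint proteins to kinetochores, had 140.03, 134 and 134 CPM in siNC and 186, 169.8 and 165 in siTRIM28 (log2 fold change 0.35, standard error 0.0507, adjusted p = 0.000180). BUB1B, which encodes the CDC20 inhibitor BUBR1, had 156, 156 and 153 CPM in siNC and 205, 183 and 185 in siTRIM28 (log2 fold change 0.30, standard error 0.0493, adjusted p = 0.000430). SGO1, the shugoshin that guards centromeric cohesin, had 46.2, 46.4 and 46.6 CPM in siNC and 79.3, 65.8 and 66.2 in siTRIM28 (log2 fold change 0.60, standard error 0.0743, adjusted p = 5.39e-05), and its value was 0.51 without siTRIM28 replicate 1, the highest culture. SGO1-AS1, on the opposite strand, carried 72.5% as many reads and had a log2 fold change of 0.68. MAD2L1, the checkpoint protein MAD2, fell, with 43.1, 44.8 and 46.6 CPM in siNC and 36.6, 39.9 and 37.8 in siTRIM28 (log2 fold change −0.23, standard error 0.0627, adjusted p = 0.0105). BUB3 (a log2 change of 0.07 with adjusted p = 0.509) was within the replicate error.

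UBE2C, the ubiquitin-conjugating enzyme of the anaphase-promoting complex, had 109, 111 and 111 CPM in siNC and 73.2, 84.4 and 74.4 in siTRIM28 (log2 fold change −0.51, standard error 0.0583, adjusted p = 3.08e-05). All 3 siTRIM28 cultures lay under all siNC cultures. CDC20, the activator of that complex, did not pass the test (a log2 change of 0.06 with adjusted p = 0.526). PTTG1, securin, had 128, 129 and 129.99 CPM in siNC and 125, 137 and 137 in siTRIM28. Securin was not distinguishable between the groups (a log2 change of 0.04 with adjusted p = 0.498). ESPL1, the separase that securin holds back, had 19.2, 16.3 and 15.9 CPM in siNC and 19.4, 21.8 and 23.2 in siTRIM28. The rise of ESPL1 (log2 fold change 0.32, standard error 0.0918, adjusted p = 0.0153) left the groups nearly touching, at 19.2 in siNC replicate 1 and 19.4 in siTRIM28 replicate 1, and its adjusted p was 0.0680, 0.0795 and 0.0723 without siNC replicate 2, siNC replicate 3 or siTRIM28 replicate 3.

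At the kinetochore 7 of 9 genes rose. SPC24 (ENSG00000161888, chromosome 19, 11131520 to 11155765), a subunit of the NDC80 complex that grips microtubules, had the largest rise of the 46, with 30.2, 31.3 and 29.2 CPM in siNC and 51.8, 50.8 and 53.5 in siTRIM28 (log2 fold change 0.78, standard error 0.0601, adjusted p = 1.27e-06). NDC80 had 85.0, 87.1 and 85.7 CPM in siNC and 129, 127 and 124 in siTRIM28 (log2 fold change 0.56, standard error 0.0440, adjusted p = 1.67e-06). NUF2 had 126, 124 and 123 CPM in siNC and 162, 164 and 163 in siTRIM28 (log2 fold change 0.39, standard error 0.0401, adjusted p = 1.34e-05). These 3 subunits of one complex rose with little spread between cultures. SPC25, the fourth subunit, had 27.9, 26.9 and 29.9 CPM in siNC and 25.1, 28.5 and 27.7 in siTRIM28 and overlapped between the groups (a log2 change of −0.06 with adjusted p = 0.535).

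CENPE, a kinetochore motor, had 154, 159 and 158 CPM in siNC and 219, 243 and 232 in siTRIM28 (log2 fold change 0.56, standard error 0.0463, adjusted p = 2.45e-06). CENPF, a large protein of the outer kinetochore, had 354, 358 and 389 CPM in siNC and 531, 573 and 563 in siTRIM28 (log2 fold change 0.60, standard error 0.0471, adjusted p = 1.60e-06). Both were above siNC in all 3 siTRIM28 cultures. CENPI (a log2 change of 0.30 with adjusted p = 0.00216) and CENPK (a log2 change of 0.20 with adjusted p = 0.0258), subunits of the inner centromere network, also rose, and CENPK was no longer past the threshold without any 1 library other than siTRIM28 replicate 1 (adjusted p from 0.0622 to 0.104).

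CENPA (ENSG00000115163, chromosome 2, 26764289 to 26801067), the histone H3 variant that marks the centromere, fell. It had 23.2, 24.99 and 28.1 CPM in siNC and 9.71, 14.4 and 14.8 in siTRIM28 (log2 fold change −0.98, standard error 0.132, adjusted p = 0.000108). The highest siTRIM28 culture was well below the lowest siNC culture, and siTRIM28 replicate 1 was the lowest of all. Without that library the log2 fold change was −0.80, with the call kept. The annotated span of CENPA also overlaps SLC35F6 on the same strand, which had 27.97% as many reads and a log2 fold change of 0.30. HJURP, the chaperone that places CENPA protein on the centromere and no member of the 46, moved the other way, from 225 ± 6.46 to 462 ± 29.7 CPM (a log2 change of 1.04 with adjusted p = 4.12e-08).

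The chromosomal passenger complex joins AURKB to INCENP, survivin and borealin. BIRC5 (ENSG00000089685, chromosome 17, 78214186 to 78225636), the gene of survivin, had the largest change of all 46 genes, with 112, 115 and 112 CPM in siNC and 32.9, 37.3 and 34.4 in siTRIM28 (log2 fold change −1.70, standard error 0.0580, adjusted p = 4.12e-09). The mean level fell by 69.1%, and leaving out any library kept the log2 fold change between −1.76 and −1.65. INCENP, the scaffold, had no detectable difference (a log2 change of −0.05 with adjusted p = 0.361), and CDCA8, the gene of borealin, had 42.0, 44.7 and 43.7 CPM in siNC and 57.0, 55.4 and 57.9 in siTRIM28 (log2 fold change 0.38, standard error 0.0568, adjusted p = 0.000218). The 4 genes of this complex thus gave 2 falls, 1 rise and 1 value within the replicate error.

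**Figure D2:**
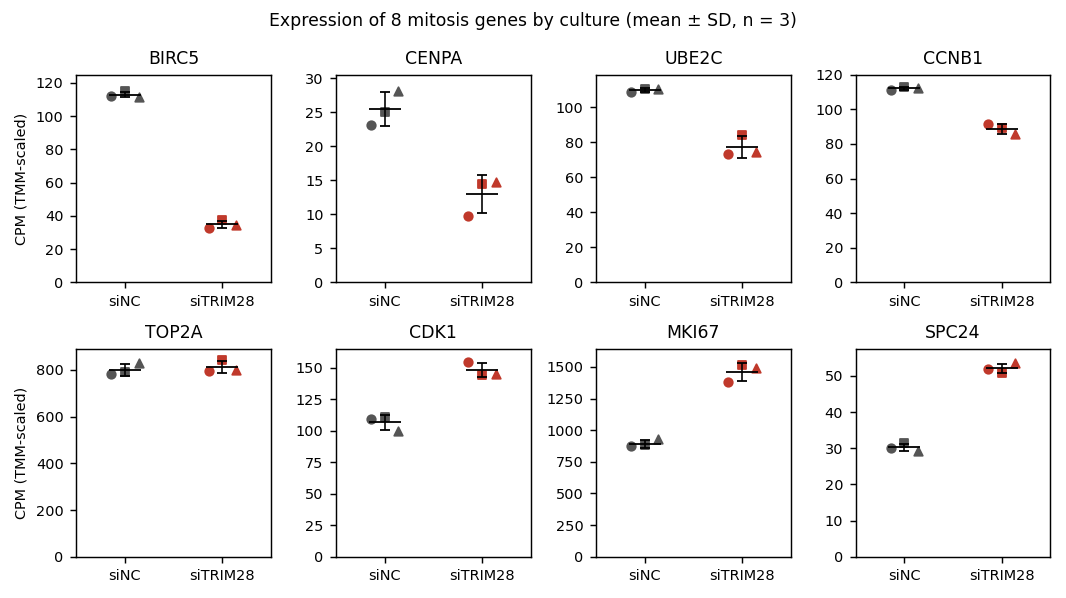
CPM of 8 genes (vertical axes, linear from 0) in the siNC (grey) and siTRIM28 (red) cultures, with marker shape for the replicate number and a bar for the mean ± SD (n = 3). BIRC5, CENPA, UBE2C and CCNB1 are lower in every siTRIM28 culture, TOP2A overlaps, and CDK1, MKI67 and SPC24 are higher in every siTRIM28 culture.

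All 5 spindle assembly genes rose. ASPM, which focuses the spindle poles, had 95.9, 96.0 and 99.6 CPM in siNC and 144, 155 and 151 in siTRIM28 (log2 fold change 0.63, standard error 0.0461, adjusted p = 9.15e-07). DLGAP5, a stabilizer of kinetochore fibres, rose from 198 ± 1.71 to 261 ± 6.06 CPM (a log2 change of 0.40 with adjusted p = 8.67e-06) and NUSAP1, which bundles microtubules near chromosomes, from 184 ± 6.62 to 235 ± 6.81 CPM (a log2 change of 0.35 with adjusted p = 5.69e-05). TPX2, the activator of AURKA (a log2 change of 0.23 with adjusted p = 0.000883), and HMMR, a microtubule-binding protein (a log2 change of 0.26 with adjusted p = 0.00293), also rose, and with the close pairs summed their adjusted p was 0.0502 and 0.106. NUSAP1 shares its locus with a same-strand gene known only by an identifier that had 103% of its count, and PRC1 likewise with one that had 97.9%, so reads there cannot be assigned to one gene of each pair.

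Cytokinesis genes gave 1 of each kind. ECT2, which activates RhoA at the cleavage site, rose from 160.2 ± 3.11 to 211 ± 8.02 CPM (log2 fold change 0.40, standard error 0.0433, adjusted p = 2.12e-05). ANLN, the scaffold of the contractile ring, had 636, 624 and 655 CPM in siNC and 495, 522 and 517 in siTRIM28 and fell (log2 fold change −0.32, standard error 0.0381, adjusted p = 4.14e-05). PRC1, the bundler of the central spindle, was within the replicate error (a log2 change of 0.03 with adjusted p = 0.619).

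MKI67 (ENSG00000148773, chromosome 10, 128096659 to 128126235), whose protein coats mitotic chromosomes and serves as the standard stain for cycling cells, had 871, 881 and 929 CPM in siNC and 1382, 1514 and 1488 in siTRIM28 (log2 fold change 0.71, standard error 0.0430, adjusted p = 2.10e-07). Its mean in siTRIM28 was 1.63 times that in siNC. The lowest siTRIM28 culture was far above the highest siNC culture. An exact two-sided permutation test of MKI67 gave p = 0.1, and a comparison of 3 with 3 cultures can give no smaller p. The study reports less growth, fewer colonies and more apoptosis in T24 cells after TRIM28 silencing. It also reports lower Ki-67 staining in xenografts of TRIM28-knockout T24 cells, a protein measure in tumours rather than RNA in culture. The growth of the sequenced cultures is not given in the sources used here. TOP2A, the topoisomerase that untangles sister chromatids and another common proliferation marker, had 782, 791 and 828 CPM in siNC and 795, 844 and 798 in siTRIM28, and its difference was within the replicate error (a log2 change of 0.02 with adjusted p = 0.702).

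Of the condensin genes, SMC4 had 704, 716 and 733 CPM in siNC and 937, 1018 and 994 in siTRIM28 (log2 fold change 0.45, standard error 0.0398, adjusted p = 3.69e-06) and NCAPG rose from 76.9 ± 0.796 to 102 ± 1.30 CPM (a log2 change of 0.41 with adjusted p = 2.41e-05). SMC2, the ATPase that pairs with SMC4 in both condensins, had 201, 197 and 207 CPM in siNC and 191, 218 and 207 in siTRIM28 and did not pass the test (a log2 change of 0.03 with adjusted p = 0.727). FOXM1, the transcription factor of many of these genes, rose slightly, from 105.33 ± 1.72 to 120.0 ± 1.78 CPM (log2 fold change 0.19, standard error 0.0431, adjusted p = 0.00433). With the close pairs summed its adjusted p was 0.116. FOXM1 overlaps RHNO1 and ITFG2 on the opposite strand, which had 19.7% and 17.2% as many reads.

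Levels were set between genes per kilobase of the length listed with the counts, which for MKI67 is 12845 bases, less than its genomic span. The ranks are rough where reads cannot be assigned to 1 gene, as for PRC1 and NUSAP1. TPX2 was the highest in siNC at 138 ± 1.08 CPM per kilobase, followed by TOP2A at 126 ± 3.85, ANLN at 106 ± 2.60 and SMC4 at 87.9 ± 1.82 (mean ± SD, n = 3). ESPL1 was the lowest at 1.93 ± 0.203. In siTRIM28 TPX2 and TOP2A kept ranks 1 and 2, MKI67 moved from rank 6 to rank 4, and BIRC5 moved from rank 19 to rank 41. CENPA moved from rank 35 to rank 44 of 46.

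Partner genes and paralogues were compared as 11 pairs, by the log2 ratio of their CPM within each culture. In 9 pairs the ratios of the groups did not overlap (exact two-sided permutation test, p = 0.1 each and 0.122 after adjustment over 11 pairs). This test can give no p below 0.1 with 3 against 3 cultures. Over all single genes tested 52.0% did not overlap, and the share over other pairs of genes was not computed. The largest shift was in BIRC5 over CDCA8, with ratios of 1.41, 1.36 and 1.35 in siNC and −0.79, −0.57 and −0.75 in siTRIM28, a difference of −2.08. The ratio was positive in every siNC culture and negative in every siTRIM28 culture. CDC25B over CDC25C differed by −1.04, SPC24 over SPC25 by 0.84, MKI67 over TOP2A by 0.69 and AURKA over AURKB by 0.59. SMC2 over SMC4 differed by −0.43, CCNB1 over CCNB2 by −0.41, PTTG1 over ESPL1 by −0.28 and NDC80 over NUF2 by 0.16.

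The pairs BUB1 over BUB1B and CENPE over CENPF showed no separation. Their ratios were −0.15, −0.22 and −0.18 in siNC and −0.14, −0.11 and −0.16 in siTRIM28 for BUB1 over BUB1B, a difference of 0.05 (exact permutation test, p = 0.2). For CENPE over CENPF the difference was −0.04 (exact permutation test, p = 0.4). The pooled SDs of these ratios were 0.0317 and 0.0502.

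Promoters of genes expressed late in the cell cycle often carry a cell cycle genes homology region (CHR), read as TTTGAA or TTCGAA, and a CCAAT box bound by NF-Y. Promoter sequence from RefSeq (GRCh38.p14) was found for 39 of the 46 genes and not for AURKA, BIRC5, BUB3, FOXM1, TPX2, TTK and UBE2C. In the 100 bases before to the 50 bases after a start, on either strand, 28 of the 39 genes held a CHR match (71.8%) and 27 held CCAAT (69.2%). Over all 27305 genes with a promoter the shares were 9.09% and 25.3%, and over the 11033 that were tested they were 6.82% and 29.0%. A gene with several starts was counted if any of them matched. The CHR match was in 18 of 25 genes that rose, 4 of 6 that fell and 6 of 8 that were not called, so members that moved in opposite directions carried it. CCAAT was in 18 of 25, 2 of 6 and 7 of 8. Counted by start instead of by gene, the CHR match was in 19 of 31, 4 of 10 and 6 of 10. These are letter matches in a fixed window and no measure of binding.

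The stretches from 110 bases before to 20 bases after the start are shown for 2 genes that rose, 2 that were not called and 2 that fell, to set these elements side by side (gene strand, 5′ to 3′, CHR and CCAAT matches of either strand in capitals, adjoining capitals where they overlap).
MKI67, higher (chr10:128126404-128126533, minus strand): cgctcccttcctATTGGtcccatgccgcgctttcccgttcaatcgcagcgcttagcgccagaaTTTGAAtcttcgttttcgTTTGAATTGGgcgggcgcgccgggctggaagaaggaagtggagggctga
PLK1, higher (chr16:23678779-23678908, plus strand): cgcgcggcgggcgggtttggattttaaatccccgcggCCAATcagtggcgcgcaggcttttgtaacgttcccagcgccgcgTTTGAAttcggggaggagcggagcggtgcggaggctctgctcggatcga
CCNB2, not called (chr15:59105036-59105165, plus strand): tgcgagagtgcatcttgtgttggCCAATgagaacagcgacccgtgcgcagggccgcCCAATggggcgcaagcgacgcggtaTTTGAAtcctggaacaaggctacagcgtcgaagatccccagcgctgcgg
INCENP, not called (chr11:62123901-62124030, plus strand): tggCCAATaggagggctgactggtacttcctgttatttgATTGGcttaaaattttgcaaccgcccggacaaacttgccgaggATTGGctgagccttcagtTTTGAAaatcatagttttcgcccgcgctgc
CENPA, lower (chr2:26785946-26786075, plus strand): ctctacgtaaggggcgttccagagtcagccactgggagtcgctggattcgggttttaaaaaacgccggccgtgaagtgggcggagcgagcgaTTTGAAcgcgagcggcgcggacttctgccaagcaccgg
CCNB1, lower (chr5:69167040-69167169, plus strand): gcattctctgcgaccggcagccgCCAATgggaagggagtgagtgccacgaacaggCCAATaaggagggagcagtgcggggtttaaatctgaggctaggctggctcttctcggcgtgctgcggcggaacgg
MKI67 held CHR matches that begin 47 and 29 bases before the start, PLK1 and CCNB2 1 each at 29 bases, and CENPA 1 at 18 bases. CCNB1 held CCAAT at 87 and 55 bases and no CHR match in this window. CCNB2 held CCAAT at 87 and 54 bases in the stretch shown, and again at 120 and 244 bases before the start. The RefSeq start used for CENPA lies inside the gene span given in the count table, and that for MKI67 lies outside it.

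Other genes of mitosis, in 7 lists of 104 genes, were counted in the same fit. Of the 104, 50 rose (48.1%), 21 fell (20.2%) and 33 were not called, with a median log2 fold change of 0.16. Among all genes tested 21.3% rose and 20.5% fell. Among the 7154 genes in the siNC range of the 46 genes, 23.8% rose and 32.7% fell. The share of falls among the 104 was thus near that of all genes tested and below that of this range. The 104 genes themselves spanned a wider range, 2.45 to 1285 CPM in siNC. Of other spindle and cytokinesis genes 20 of 25 were higher and 3 lower (median 0.40). Of these PIMREG rose from 21.4 ± 1.30 to 42.0 ± 4.27 CPM (a log2 change of 0.97 with adjusted p = 3.43e-06), KIF23, a motor of the central spindle, from 237 ± 3.39 to 399 ± 8.27 CPM (a log2 change of 0.75 with adjusted p = 5.31e-08), and CIT, the citron kinase of cytokinesis, from 120.2 ± 3.84 to 193 ± 5.36 CPM (a log2 change of 0.68 with adjusted p = 3.38e-07). The mitotic entry list had 7 of 13 higher and 1 lower, with CDC25A, the CDC25 phosphatase that also acts at S phase entry, at 8.57, 8.16 and 7.76 CPM in siNC and 16.9, 17.7 and 17.9 in siTRIM28 (a log2 change of 1.10 with adjusted p = 9.34e-07). WEE1, the kinase that opposes the CDC25 phosphatases, also rose (a log2 change of 0.52 with adjusted p = 0.000802). Among the other condensin subunits 3 of 5 rose and the other 2 did not pass the test, with NCAPH2 (a log2 change of 0.34 with adjusted p = 0.00183) the largest rise.

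Kinetochore genes outside the 46 were mixed, with 9 of 26 higher (34.6%), 5 lower (19.2%) and a median of 0.01. For this and the following lists, the shares among all genes tested were 21.3% higher and 20.5% lower. HJURP has been given beside CENPA. KNL1, the scaffold on which BUB proteins dock, rose from 55.7 ± 1.91 to 96.7 ± 5.19 CPM (a log2 change of 0.80 with adjusted p = 7.37e-07). MIS12, which joins KNL1 and the NDC80 complex to the centromere, fell from 58.7 ± 2.40 to 35.1 ± 2.98 CPM (a log2 change of −0.74 with adjusted p = 8.22e-06). Subunits of the anaphase-promoting complex gave 5 of 17 higher (29.4%) and 6 lower (35.3%), with a median of −0.04. ANAPC16 fell from 23.6 ± 1.53 to 13.8 ± 0.303 CPM (a log2 change of −0.77 with adjusted p = 6.51e-06) and CDC26 from 71.7 ± 2.94 to 45.8 ± 2.84 CPM (a log2 change of −0.64 with adjusted p = 8.48e-06). Cohesin and its regulators gave 5 of 13 higher and 5 lower (38.5% each). The largest change was in CDCA5, sororin, which holds sister chromatids together until anaphase. CDCA5 had 34.2, 35.4 and 34.4 CPM in siNC and 13.8, 14.5 and 13.9 in siTRIM28 (log2 fold change −1.30, standard error 0.0645, adjusted p = 4.74e-08). Among 5 other checkpoint genes TPR rose (a log2 change of 0.58 with adjusted p = 8.31e-07) and MAD2L2 fell (a log2 change of −0.28 with adjusted p = 0.00487).

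**Figure D3:**
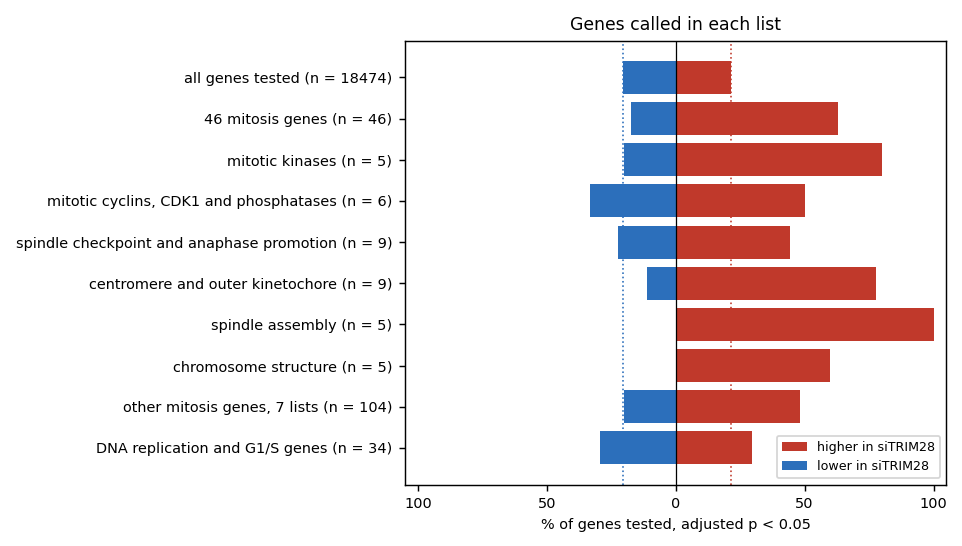
Horizontal bars give the percentage of genes tested that were higher (red, right) or lower (blue, left) in siTRIM28 at an adjusted p under 0.05, for all genes, the 46 mitosis genes, their groups with at least 5 genes, the other mitosis genes and a DNA replication list. Dotted lines mark the shares over all genes tested, 21.3% higher and 20.5% lower, and the red bar of the 46 genes reaches 63.0%.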

How the data were processed

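The authors deposited whole-number counts of reads per gene, without normalization, for 6 poly(A) RNA libraries made with a stranded kit. The submitters' processing notes name fastp 0.23.1, STAR 2.7.6a, featureCounts and GRCh38, and the annotation release, the strand setting and the handling of reads on overlapping genes are not given in the sources used here. A second deposited table, the authors' list of differentially expressed genes, was not used, and its RPKM values repeat the counts. Groups and replicate numbers came from the labels. The test was edgeR 4.0.16's quasi-likelihood F-test (R 4.3.3) with TMM factors and no covariate besides condition. It covered 18474 genes, each reaching 10 counts in 3 or more libraries, and Benjamini-Hochberg adjustment ran over all of them. Standard errors were derived as the fold change on the log2 scale over the root of F. Pairs were compared by exact permutation of log2 CPM ratios (prior count 2). The fewest counts of any mitosis gene in a library were 136. On simulated counts for this comparison, 157 of 200 genes changed by 0.8 (log2) were recovered among 18474. Alternatives were DESeq2 1.42.0, limma-voom (limma 3.58.1), scaling by RLE, by upper quartile or by library totals, both filters, the replicate block, each library left out, close pairs summed and an adjusted p under 0.01. The members, lists and tests were chosen with earlier results of these data known. Values per culture are given for MKI67, the genes of the pairs, the 10 largest rises, the falls and PLK1, and from each list up to 3 called genes with a mean of at least 50 counts and the largest changes could be named. Tables came from Python 3.11.15 with pandas 2.3.3 and numpy 2.4.6, exact tests from scipy 1.17.1 and figures from matplotlib 3.10.9. Not every overlap of a mitosis gene with another gene is reported here.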

Additional observations from a re-analysis of the deposited data

How the results depend on the processing

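Of the 37 calls among the 46 genes, 28 were kept under every alternative run, 9 were lost under at least 1 (MAD2L1, AURKA, FOXM1, CENPK, TPX2, CCNA2, HMMR, ESPL1 and PLK1) and 0 changed direction. FOXM1, TPX2, CCNA2, HMMR and PLK1 were lost only with the close pairs summed. AURKA, CENPK and ESPL1 were lost there too, and also under other alternatives. The count of higher genes lay between 26 and 29, and of lower genes between 7 and 8, except that summing the close pairs, which leaves 2 samples a group, gave 21 higher. The median log2 fold change of the 46 genes was 0.28. It was 0.32 with upper-quartile scaling, 0.26 with the close pairs summed, and between 0.26 and 0.28 when single libraries were left out. No pair difference changed sign with upper-quartile scaling or with any single library left out. The pairs were not compared with the close pairs summed. The number of changed genes over the whole table ran from 5393 (adjusted p under 0.01) to 8130 (without siTRIM28 replicate 1), with 5878 for DESeq2. With the close pairs summed it was 5830 of 20157 tested, and 45.9% of those changed were higher. TRIM28 kept its call throughout. Same-numbered cultures did not deviate together (r = 0.05, −0.01 and 0.04), and the main fit did not pair the samples. With siNC replicate 3 and siTRIM28 replicate 1 apart from their groups, these values cannot show whether same-numbered cultures were handled together. With the replicate number as a block, 29 genes were higher and 8 lower, the median was 0.28 and 7910 genes changed over the whole table. That siNC replicates 1 and 2, and siTRIM28 replicates 2 and 3, were closer than the others was not explained by the labels.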

Other observations

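Of 34 genes of DNA replication and the G1/S step, 10 were higher and 10 lower (29.4% each), with a median log2 fold change of 0.01. Among all genes tested 21.3% were higher and 20.5% lower. The difference of this list from the mitosis genes was not tested. The largest changes were falls of POLA1, the catalytic subunit of the priming polymerase, which had 50.7, 49.8 and 51.2 CPM in siNC and 17.9, 22.04 and 19.9 in siTRIM28 (log2 fold change −1.35, standard error 0.0763, adjusted p = 1.24e-07), and of RRM2, the small subunit of ribonucleotide reductase, which had 104, 100.2 and 103 CPM in siNC and 46.6, 47.3 and 50.6 in siTRIM28 (log2 fold change −1.09, standard error 0.0527, adjusted p = 4.08e-08). CCNE1, cyclin E1, rose, with 14.8, 16.0 and 17.95 CPM in siNC and 27.1, 29.1 and 30.7 in siTRIM28 (log2 fold change 0.83, standard error 0.0827, adjusted p = 1.01e-05). In each of these genes the cultures of the groups did not overlap.

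Regulators of mitotic gene transcription, a list of 18, gave 6 higher (33.3%) and 5 lower (27.8%), where 21.3% of all genes tested were higher and 20.5% lower. E2F7, an E2F factor that represses transcription, had 17.9, 18.5 and 17.95 CPM in siNC and 37.3, 42.0 and 40.6 in siTRIM28 (log2 fold change 1.14, standard error 0.0682, adjusted p = 1.87e-07). CDKN1A, the CDK inhibitor p21, had 16.3, 14.7 and 13.6 CPM in siNC and 31.4, 29.8 and 27.6 in siTRIM28 (log2 fold change 0.99, standard error 0.0819, adjusted p = 2.38e-06). Every siTRIM28 culture was above every siNC culture in both genes. RBBP4, a histone-binding protein shared by MuvB and several chromatin complexes, fell from 118 ± 0.568 to 81.3 ± 1.73 CPM (a log2 change of −0.53 with adjusted p = 2.50e-06).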
